A study of Drosophila melanogaster with 8 samples.

Results

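Homothorax (Hth) and Extradenticle (Exd) are partner transcription factors (TFs), and binding of Deadpan (Dpn) at their genes was examined in larval neuroblasts (NBs), the neural stem cells of the Drosophila brain. The members are 2 genes of 17684, hth on 3R and exd on the X chromosome, and the Dpn peaks within 1 kb and within 20 kb of them. The medulla NB list came from Dpn-GFP brains compared with brains of the w1118 background, both carrying a Dam-linked GFP nanobody (NanoDam) and tub-GAL80ts and driven by eyR16F10-GAL4. The pan-NB list came from Dam-Dpn compared with Dam-only, driven in all NBs by wor-GAL4 with tub-GAL80ts. All brains were of the 3rd larval instar, with 2 replicates of 40 brains in each NanoDam condition and 2 replicates of 30 brains in each wor-GAL4 condition. In NanoDam the tagged Dpn stays under its own control in a BAC transgene and recruits Dam wherever the driver is on, and the study describes eyR16F10-GAL4 as expressed in neurons as well as NBs. In the pan-NB profile the fusion protein itself is made from the GAL4 driver. Each list is named as an average of its replicates, although the study's methods describe peak calls in single replicates. The lists give no value per replicate, so none below carries a replicate error, and they hold no expression with which the cell type could be checked against markers.

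Dpn is a basic helix-loop-helix protein of the Hes family that helps to keep NBs in their stem cell state. It has been classed as a repressor of transcription, but the study cites earlier work in which its targets went up as well as down. Hth is a homeodomain protein of the Meis class and Exd one of the Pbx class. Both belong to the TALE group, whose homeodomain carries a loop extension. Hth binds Exd and brings it into the nucleus, and together they act as cofactors of Hox proteins. In the medulla of the optic lobe, Hth marks the neuroepithelium and the youngest NBs at the start of the temporal series, and these NBs give rise to neurons that express the homeobox gene bsh.

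The partners differed in both lists. hth had 4 peaks within 1 kb in the medulla NB list and 23 in the pan-NB list, and exd had 0 peaks in both. A peak within 1 kb was found at 22.2% of all genes in the medulla NB list and at 26.3% in the pan-NB list. hth is long, and among the 83 protein-coding genes of over 100 kb the shares were 59.0% in the medulla NB list and 63.9% in the pan-NB list. exd is short, and among protein-coding genes of 3 to 5 kb they were 25.8% in the medulla NB list and 29.3% in the pan-NB list. Most genes of that size thus had no peak within 1 kb, as exd. Within 20 kb, hth had 6 medulla NB peaks and 28 pan-NB peaks, where 64.4% of all genes in the medulla NB list and 71.4% in the pan-NB list had at least 1. hth was chosen by its numbers of peaks, its shared peaks and its covered lengths in these lists, and exd as its partner, so these values are a description and were not tested.

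Within 1 kb of hth the medulla NB peaks covered 4454 bp and the pan-NB peaks 32035 bp, which is 3.32% of the window in the medulla NB list and 23.9% in the pan-NB list. The medulla share, the part of the medulla NB list in the summed covered length of both, was 12.2% at hth, and the median over 5772 genes with a peak in either list was 46.3%. At 54.9% of these genes the medulla NB list covered less than the pan-NB list. Inside the gene there were 3.03 medulla NB peaks per 100 kb, close to the 2.48 per 100 kb along 3R. Pan-NB peaks inside hth numbered 16.7 per 100 kb, against 3.22 along 3R. Peak density at hth was thus high in the pan-NB list and near that of the chromosome arm in the medulla NB list.

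**Figure D1:**
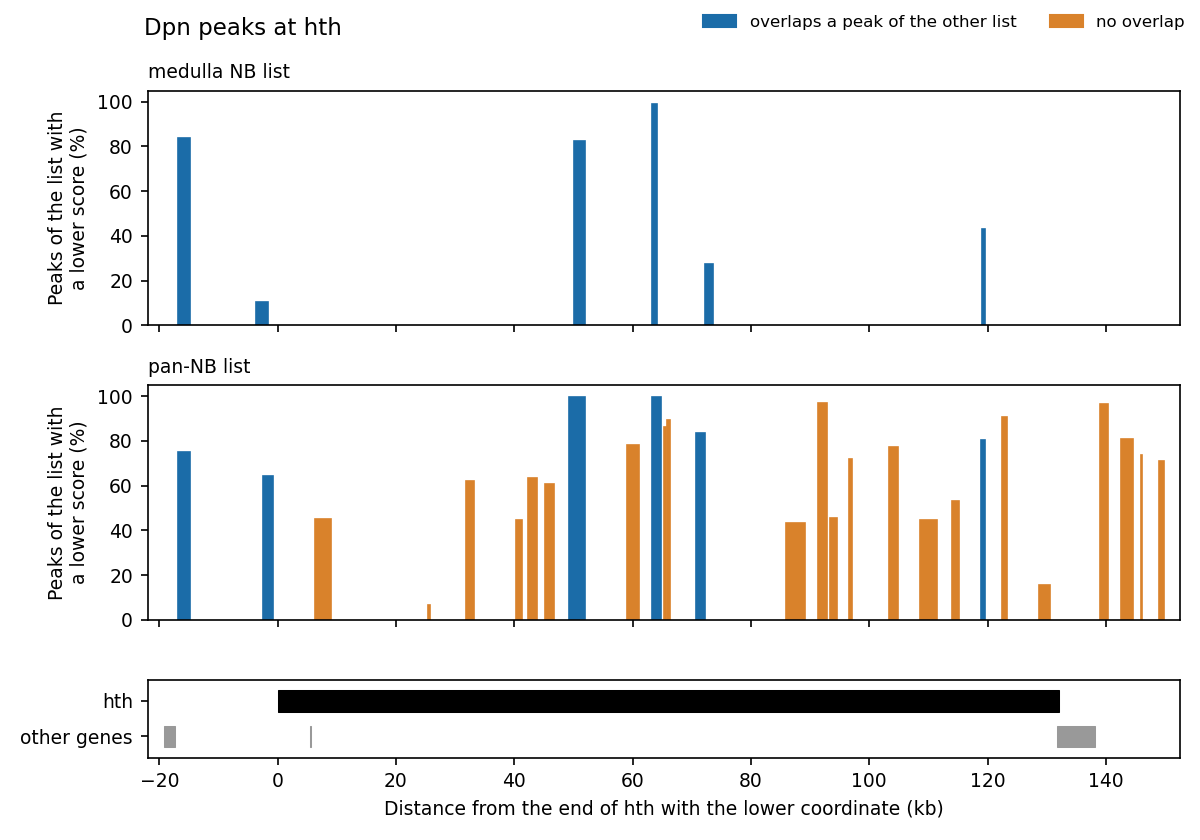
Peaks of the medulla NB list (top) and the pan-NB list (middle) along hth (black bar) and its neighbours (grey), in kb from the gene end with the lower coordinate. Bar height is the percentage of peaks of the same list with a lower score, and bar width is the peak. All 6 medulla NB peaks within 20 kb overlap a pan-NB peak, whereas 22 of the 28 pan-NB peaks overlap none.

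Peaks are described from the lower coordinate upwards, since the gene table used here gives no strand. Ranks count from the highest score within 3474 medulla NB peaks or 4282 pan-NB peaks. Scores are the peak caller's own values and are not compared between the lists. Below the gene, the first medulla NB peak (3R:10490669-10492797, rank 559) and the first pan-NB peak (3R:10490669-10492678, rank 1064) began at the same position, and lay closer to lncRNA:CR45576 than to hth. The next medulla NB peak (3R:10503897-10505971, rank 3105) ended 1590 bp short of hth and was outside the 1 kb window. Its pan-NB counterpart (3R:10505015-10506694, rank 1525) ended 867 bp from hth and was inside it, so this shared position counted for hth in the pan-NB list alone.

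Cut into 3 parts of equal length, hth held 0 medulla NB peaks in its lower part, 3 in its middle part and 1 in its upper part, assigned by their midpoints. The pan-NB list had 5 peaks in the lower part, 8 in the middle part and 9 in the upper part. No medulla NB peak lay in the 51.7 kb between 10505971 and 10557672, and 6 pan-NB peaks did. They ran from 10513922 to 10516559, close to mir-4944 (score 3.78, rank 2334), from 10533026 to 10533356 (score 2.03, rank 3993) and from 10539457 to 10540672 (score 4.67, rank 1605). The other 3 lay close together, from 10547779 to 10548799 (rank 2363), from 10549944 to 10551371 (rank 1566) and from 10552804 to 10554319 (rank 1672). None of the 6 ranked above 1566, so this stretch held pan-NB peaks of middle and low score.

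Inside the gene, the highest-scoring peaks of both lists lay in the middle part. The medulla NB peak at 3R:10557672-10559531 (score 7.39, rank 611) lay wholly within a pan-NB peak at 3R:10556871-10559531 (score 8.30, rank 21) and ended at the same base. The medulla NB peak at 3R:10570917-10571705 had a score of 11.7 and rank 42, and the pan-NB peak that starts with it, 3R:10570917-10572366, had a score of 8.20 and rank 24. This was the position at hth where both lists ranked Dpn binding among their highest peaks. Between these positions a pan-NB peak from 10566702 to 10568563 (rank 928) was unshared, as were 2 short ones just above, from 10572921 to 10573195 (rank 596) and from 10573350 to 10573862 (rank 454). The nearest medulla NB peak was 1216 bp from the first of these and 1645 bp from the second. The medulla NB peak at 3R:10579838-10581149 (score 2.69, rank 2515) and the pan-NB peak at 3R:10578335-10579838 (score 6.19, rank 705) had a single base in common, so they are neighbours that meet at 1 position rather than peaks over the same DNA. Of all 2460 overlapping pairs in the lists, 3.78% overlapped by 1 bp only.

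Above this pair the medulla NB list was empty for 45.5 kb, from 10581149 to 10626613, where 7 pan-NB peaks covered 12139 bp. The highest-scoring of these ran from 10598885 to 10600449 (score 7.54, rank 134). In the whole list 138 peaks scored at least as high, and 16 of them (11.6%) were unshared. The other 6 ran from 10593465 to 10596751 (rank 2419), from 10600863 to 10602108 (rank 2325), from 10604143 to 10604703 (rank 1191), from 10610978 to 10612413 (rank 972), from 10616212 to 10618981 (rank 2370) and from 10621480 to 10622753 (rank 2003). The stretch ended with a shared position, a medulla NB peak at 3R:10626613-10627105 (score 3.54, rank 1970) inside a pan-NB peak at 3R:10626505-10627105 (score 5.90, rank 842). Above it, pan-NB peaks from 10629987 to 10630798 (rank 388) and from 10636255 to 10638188 (rank 3615) were unshared.

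Beyond the upper end of hth the next medulla NB peak lay 54.5 kb away. Within 20 kb of that end the pan-NB list had 4 peaks, none of them shared. They ran from 10646562 to 10647847, close to asRNA:CR44018, which overlaps the end of hth (score 7.49, rank 147), from 10650085 to 10652235 (rank 822), from 10653498 to 10653741 (rank 1115) and from 10656531 to 10657409 (rank 1238). The next pan-NB peak, from 10660419 to 10661768, was 20.9 kb from the gene and outside the window. From 10627105 to 10694103 there were thus 67.0 kb with 0 medulla NB peaks and 8 pan-NB peaks. Unshared pan-NB peaks at hth came in runs, with 6, 7 and 8 consecutive peaks in the 3 longest, the last of which reached past the 20 kb window. Among all 901 runs of unshared pan-NB peaks, 2.22% were of 8 peaks or more, 4.77% were of 6 or more, and the longest had 25. These shares count runs, whose median length was 1 peak, and a larger part of the unshared peaks lay in long runs.

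Of the 23 pan-NB peaks within 1 kb of hth, 5 (21.7%) overlapped a medulla NB peak, whereas 55.1% of all pan-NB peaks did. All 4 medulla NB peaks were shared, where 69.6% of the medulla NB list was. Without the pair that meets at a single base, when at least 50% of a peak had to be covered, 3 of 4 medulla NB peaks and 4 of 23 pan-NB peaks at hth were shared, beside 57.3% of all medulla NB peaks and 44.3% of all pan-NB peaks. Peaks of high and low score at hth were unshared. With the pan-NB list cut into 4 score classes of about equal size, hth had 10 peaks in the highest class, of which 4 were shared, and 80.2% of that whole class was shared. In the next class 1 of 6 at hth was shared (65.1% of the class), below it 0 of 5 (48.0%), and in the lowest 0 of 2 (27.2%). The 18 unshared peaks lay between 1216 bp and 24316 bp from the nearest medulla NB peak, with a median of 8412 bp. The median over all 1924 unshared pan-NB peaks was 9328 bp.

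Neighbouring peaks at hth often had the same FDR. Of the 22 pairs of consecutive pan-NB peaks within 1 kb, 9 (40.9%) carried an identical FDR, beside 18.2% of consecutive pairs in the whole list. Counted as stretches of identical FDR, the 23 peaks formed 14, of which 5 (35.7%) overlapped a medulla NB peak. With both lists joined in this way, 55.7% of all pan-NB stretches overlapped the medulla NB list. The 2 longest stretches had 4 peaks each and spanned 11.8 kb, from 10547779 to 10559531, and 11.2 kb, from 10593465 to 10604703. The 4 medulla NB peaks each had an FDR of their own.

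At the shared positions, medulla NB peaks mostly held a lower place in their list than the pan-NB peaks in theirs. Place is given as the percentage of peaks of the same list with a lower score. For the pair at 63.8 kb from the lower end of hth it was 98.8% in the medulla NB list and 99.5% in the pan-NB list, nearly the same. For the pair at 51.0 kb it was 82.4% in the medulla NB list and 99.5% in the pan-NB list. At the other positions inside the gene the gap was wider. It was 43.1% in the medulla NB list and 80.3% in the pan-NB list at 119.3 kb, and 27.5% in the medulla NB list and 83.5% in the pan-NB list at 72.9 kb, where the peaks meet at 1 base. Below the gene, the pair at −2.6 kb had 10.3% in the medulla NB list and 64.3% in the pan-NB list. Only the pair at −15.8 kb had the opposite order, with 83.8% in the medulla NB list and 74.9% in the pan-NB list. The medulla NB peak was therefore lower at 5 of 6 pairs, with a median difference of −27.2 percentage points (medulla NB minus pan-NB). The pair that meets at 1 base had the widest difference, −56.0 points. Without it the middle difference was −17.1 points, that of the pair at 51.0 kb. Among all 2460 pairs it was lower at 54.9%, with a median difference of −2.22 points. At 4 of the 6 pairs both peaks started or ended at the same base, beside 56.6% of all pairs.

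**Figure D2:**
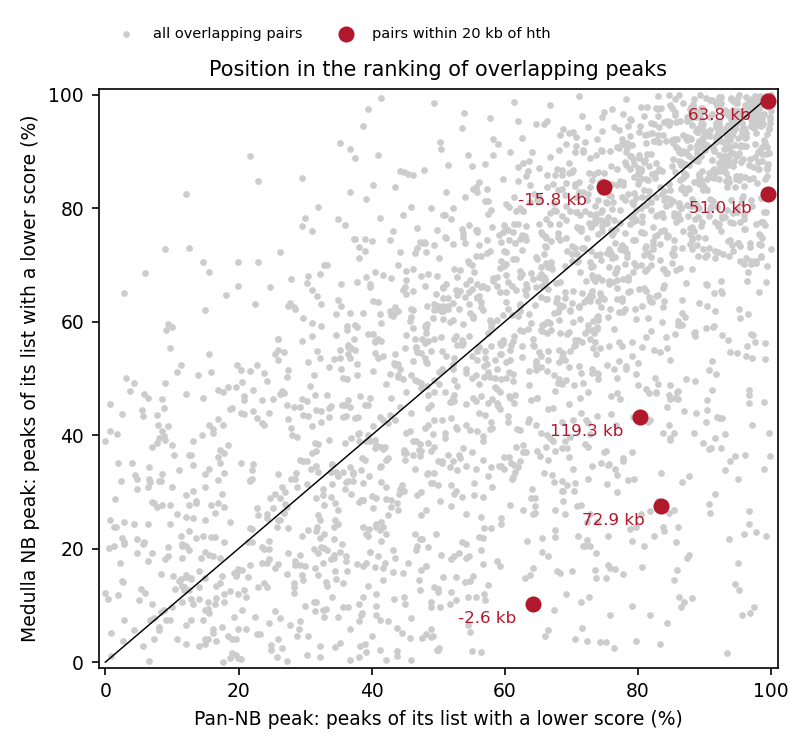
Place of overlapping peaks in the ranking of the medulla NB list (vertical axis) and of the pan-NB list (horizontal axis), as the percentage of peaks of the same list with a lower score. Red points are the 6 pairs within 20 kb of hth, labelled with the distance of the medulla NB peak from the lower end of the gene, grey points are all 2460 pairs, and the line marks equal places. In 5 of the 6 pairs at hth the medulla NB place is lower, and 1 of these, at 72.9 kb, overlaps by 1 base only.

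To find genes with a similar pattern, the 13 protein-coding genes with at least 10 pan-NB peaks within 1 kb were compared by 2 values, the shared part of their pan-NB peaks and the medulla share of covered length. Both values come from 2 lists only, and likeness is the distance between genes in percentage points. The genes were chosen by the pan-NB list alone, which leaves out genes dense only in the medulla NB list and favours low medulla shares. The shared part ran from 7.14% to 90% over these genes, with a median of 60%, and 1 gene lay below hth. The medulla share ran from 10.2% to 53.7%, with a median of 44.0%, and again 1 gene lay below hth. The nearest was heph, which encodes an RNA-binding protein of the PTB family, with 4 medulla NB and 12 pan-NB peaks, 4 of the 12 shared, and a medulla share of 19.1% (distance 13.5). Antp, a Hox gene and the one below hth in both values, followed with 1 medulla NB and 14 pan-NB peaks, 1 of the 14 shared, and a medulla share of 10.2% (distance 14.7). svp, an orphan nuclear receptor gene, had 4 medulla NB and 10 pan-NB peaks, with 4 of the 10 shared (distance 24.8). lov and Eip75B were farther off, at 35.4 and 35.8. At other densely bound genes most peaks were common to both lists. jing, a zinc finger TF gene of similar length to hth, had 17 medulla NB and 20 pan-NB peaks, 16 of the 20 shared, and a medulla share of 44.0%.

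**Figure D3:**
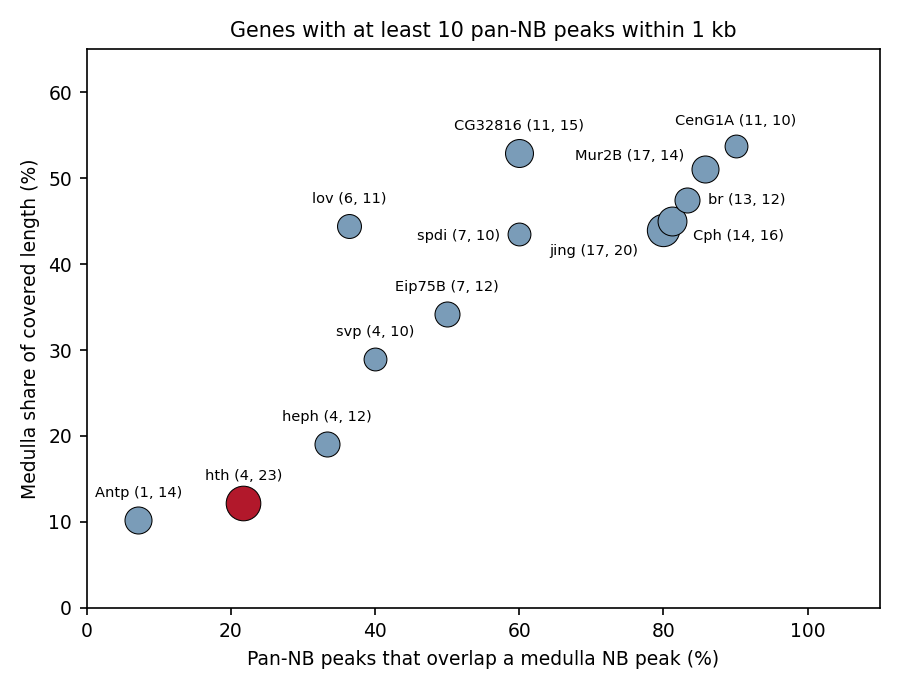
Shared part of the pan-NB peaks, in % (horizontal axis), and medulla share of covered length, in % (vertical axis), for the 13 protein-coding genes with at least 10 pan-NB peaks within 1 kb. The numbers behind each name are its medulla NB and pan-NB peaks, and point area is proportional to the pan-NB peaks. hth (red) and Antp lie at the lower left, and jing lies among genes that share most peaks.

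exd showed no Dpn peak near it in either list. Its gene is 4042 bp long, and no peak lay within 20 kb, which was also the case for 22.8% of all genes, 20.2% of protein-coding genes on the X chromosome and 19.1% of protein-coding genes of 3 to 5 kb. In the medulla NB list the nearest peaks were 79.5 kb below exd (X:15910347-15912944, score 3.17, rank 2197) and 68.3 kb above it (X:16064849-16066929, score 3.40, rank 2054). In the pan-NB list they were 38.1 kb below (X:15954081-15954323, score 2.62, rank 3379), a peak of only 243 bp, and 106 kb above (X:16102848-16104518, score 5.59, rank 1059). Of these 4 peaks, the last alone overlapped a peak of the other list. Together the lists left 110.5 kb around exd without a peak, and 238 of 5290 such gaps (4.50%) were as long or longer. That share counts gaps and not genes, and a long gap takes up more of the genome than a short one. It is therefore no measure of how rare the position of exd is among genes.

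The stretch of 110.5 kb without a peak held 15 genes, exd included, of which 13 were protein-coding. Of the 13 other genes within 20 kb of exd, 12 were protein-coding, among them eIF5, a translation initiation factor gene, ND-20, a subunit gene of respiratory complex I, and vap, a Ras GTPase activating protein gene. Of the 13, 0 had a medulla NB peak within 1 kb (22.2% of all genes) and 1 had a pan-NB peak (26.3% of all genes). That gene was mmd, which encodes a metalloprotease and extends beyond the 20 kb window. The low counts follow from choosing genes in a window without peaks and are no separate result. hth by contrast had 3 neighbours within 20 kb, all of them noncoding. Of these, lncRNA:CR45576 had 1 in each list, and mir-4944 and asRNA:CR44018 had one in the pan-NB list only. A missing peak means that no position passed the peak caller's threshold, and gives no measure of the transcription of exd.

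**Figure D4:**
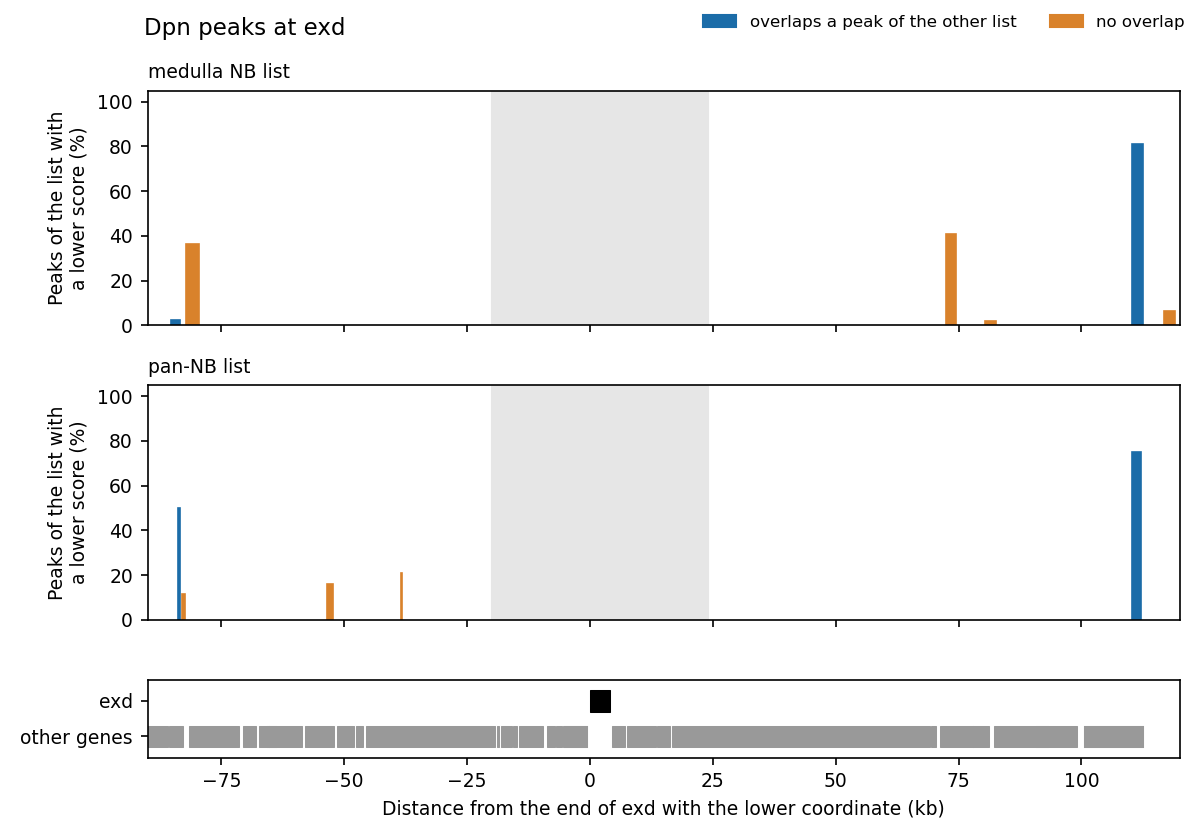
Peaks of the medulla NB list (top) and the pan-NB list (middle) around exd (black bar) and neighbouring genes (grey), in kb from the gene end with the lower coordinate, drawn as for hth. The shaded window reaches 20 kb to both sides of exd and holds 0 peaks in both lists.

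Of the 5 other genes of the TALE family, 1 was within 1 kb of a medulla NB peak and 3 of a pan-NB peak, beside 22.2% of all genes in the medulla NB list and 26.3% in the pan-NB list. caup, a gene of the Iroquois complex that patterns the eye and body wall, had 1228 bp covered in the medulla NB list and 1398 bp in the pan-NB list, at 1 shared peak. Its relatives ara and mirr had 0 bp in the medulla NB list, and 1587 bp at ara and 1541 bp at mirr in the pan-NB list. achi and vis, which encode TGIF-type proteins, had no peak within 1 kb in either list, as exd. Within 20 kb, unlike exd, achi had 2 peaks in each list and vis had 1 in each. At that distance ara had 2 medulla NB and 3 pan-NB peaks, and mirr had 2 medulla NB and 6 pan-NB peaks.

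The Hox genes, whose products bind DNA with Exd and Hth, were within 1 kb of a medulla NB peak in 2 of 8 cases, or 25%, near the 22.2% of all genes. They were within 1 kb of a pan-NB peak in 8 of 8 cases, where 26.3% of all genes were. The 2 were Antp, with 3838 bp in the medulla NB list and 33857 bp in the pan-NB list, and abd-A, with 1480 bp in the medulla NB list and 1149 bp in the pan-NB list. Ubx had 0 medulla NB peaks and 8 pan-NB peaks, with 16611 bp. Counted per gene, 2 of 32 pan-NB peaks at Hox genes (6.25%) were shared, beside 55.1% in the whole list. Hox genes are long, from 10593 bp (Dfd) to 102976 bp (Antp), and the shares of all genes are not matched to these lengths. Within 20 kb, all Hox genes but Ubx had a medulla NB peak, where 64.4% of all genes did. All of them had a pan-NB peak within 20 kb, where 71.4% of all genes did.

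Of 8 genes known to act with or on hth in eye, leg and body wall, 5 had a medulla NB peak within 1 kb. A pan-NB peak within 1 kb was also found at 5, and 4 genes had both. The shares of all genes were 22.2% in the medulla NB list and 26.3% in the pan-NB list. sd, the TEAD factor gene whose product works with Yki, had 4 peaks in each list, all shared, with 6925 bp in the medulla NB list and 6584 bp in the pan-NB list. ey, the Pax6 gene that follows hth in the medulla series, had 5479 bp in the medulla NB list and 4549 bp in the pan-NB list. tsh, a zinc finger gene that acts with hth in the eye, had 1539 bp in the medulla NB list and 4079 bp in the pan-NB list, and Dll, the limb homeobox gene, had 1146 bp in the medulla NB list and 5151 bp in the pan-NB list. tio, the paralog of tsh, had a peak in the medulla NB list only (814 bp), and the ligand gene wg in the pan-NB list only (2885 bp). yki and dpp had none within 1 kb. Of the early medulla genes, bsh had no peak within 1 kb and 2 in each list within 20 kb. SoxN had 908 bp in the medulla NB list and 955 bp in the pan-NB list. dmrt99B had 3312 bp in the medulla NB list and 1157 bp in the pan-NB list.

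**Figure D5:**
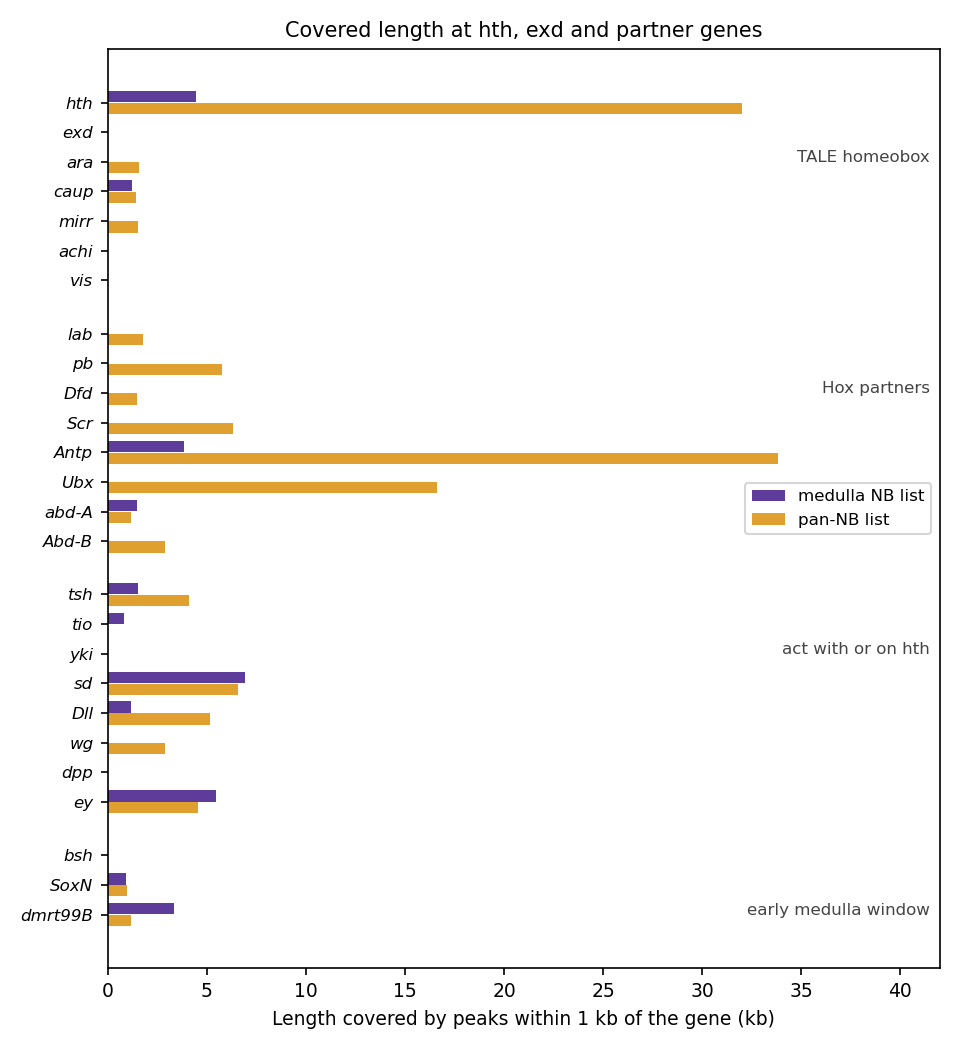
Length covered by peaks within 1 kb of each gene, in kb, in the medulla NB list (purple, upper bar) and the pan-NB list (yellow, lower bar), for the TALE genes, the Hox genes, genes that act with or on hth and early medulla genes. Missing bars are 0 kb. hth and Antp have the longest pan-NB bars, at 32035 bp and 33857 bp.

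The lists differ both in method and in the cells profiled, and the parts of these in the difference at hth cannot be told apart. The lists give neither read depth nor the spread between replicates.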

How the data were processed

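The authors aligned reads with damidseq_pipeline, averaged the profiles of 2 replicates and called peaks with find_peaks (min-quant 0.8, FDR below 0.01). Their methods speak of peak calls in single replicates, but the deposited lists are named as averages, 1 per comparison, and how the replicates entered them is not stated. For tool versions and build: not given in the sources used here. The deposited score of each peak, with no stated scale, was used only to rank peaks within its list. The deposited lists hold no reads. A target depth is stated in the methods, and the depth reached is unknown here. The lists held 3474 medulla NB and 4289 pan-NB peaks, and 7 pan-NB peaks outside the arms of chromosomes 2, 3, 4 and X were left out.

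Genes were placed with the Release 6 table of RefSeq. Peaks on 3R reach 32078821, beyond the end of that arm in Release 5. Overlap means at least 1 shared bp, and covered length is the part of peaks within 1 kb of a gene. The members and gene lists were chosen with earlier results of these data known, and no test was run. The 26 names of the gene lists were all matched.

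Named are all peaks within 20 kb of hth and exd, their neighbours under a described peak, list genes by count and where bound in 1 list or up to 4 per list, and the 5 genes nearest to hth among those with at least 10 pan-NB peaks. jing and the neighbours of exd were named after their values were seen. No sequence or motif was analysed here. Python 3.11.15, numpy 2.4.6, pandas 2.3.3, scipy 1.17.1 and matplotlib 3.10.9 were used. The overlap functions were tested on simulated data.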

Additional observations from a re-analysis of the deposited data

How the results depend on the processing

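Alternatives were a gene distance of 0, 5 and 20 kb, coverage of 50% of a peak, only the higher-scoring 50% of each list, equal numbers of peaks, an FDR below 0.001 and joining of peaks closer than 500 bp. Joining of neighbours with an identical FDR was chosen after seeing the data. Of 58 values at hth under these alternatives, 53 counted as unchanged. These stayed within 1.5 times the value in the report or, for shares of peaks, within its 95% Clopper-Pearson interval. That interval treats peaks as independent, although 40.9% of consecutive pan-NB pairs at hth had an identical FDR. It is wide for so few peaks, and shared parts of 12.5% and 35.7% counted as unchanged by it. The count of 53 is therefore no measure of robustness. With the higher-scoring 50% of each list, hth had 2 medulla NB peaks with 2649 bp covered, and 18808 bp were covered in the pan-NB list. With a distance of 20 kb the medulla NB length was 8658 bp. Joined by identical FDR, hth had 14 pan-NB stretches. They take in the gaps between joined peaks, so the covered pan-NB length rose to 46248 bp. Over all alternatives the medulla share of covered length at hth ran from 8.78% (joining by identical FDR) to 17.7% (distance of 20 kb). The shared part of its pan-NB peaks ran from 12.5% to 35.7%, where that of the whole pan-NB list ran from 44.3% to 61.8%. exd had 0 peaks under each alternative. Only the wider distances of 5 and 20 kb, or joining by identical FDR, could have changed that. A share of the peaks of exd could not be given. No paired analysis was possible because the lists give no value per replicate. Without replicates in the lists, none could be left out in turn.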
